A study of Homo sapiens with 9 samples.

Results

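Receptor tyrosine kinases are the growth factor receptors most often altered in glioblastoma, and 10 of them were followed here by gene symbol: EGFR, ERBB2, ERBB3, PDGFRA, PDGFRB, MET, FGFR1, FGFR3, AXL and KIT. All 10 were found among the 22295 entries of the expression table, and 9 had a mean of at least 0.1 FPKM and were tested, with KIT left below that level. The cells were U251, an established human glioblastoma line, infected with lentivirus carrying either a short hairpin RNA against the RNA-binding protein PTBP1 or a control hairpin against luciferase. The groups were sh-Luci-3d (the control hairpin, 3 days), sh-Ptbp1-3d (the PTBP1 hairpin, 3 days) and sh-Ptbp1-7d (the PTBP1 hairpin, 7 days), with 3 RNA-seq libraries each. All groups received a virus, and the culture was changed 2 days after infection to a neuronal induction medium with forskolin, dorsomorphin, N2 and B27. No sh-Luci library of 7 days was analysed here, so in every comparison with sh-Ptbp1-7d the knockdown and the additional days in that medium cannot be told apart. A single cell line was sequenced, and nothing states that the 3 libraries of a group came from separate infections, so p-values measure only the spread between these libraries.

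A receptor tyrosine kinase spans the cell membrane and binds a growth factor outside the cell. Once it is paired with another receptor, tyrosines on the tails of the pair are phosphorylated. Adaptor proteins dock there and pass the signal to the RAS and MAP kinase cascade and to PI3 kinase and AKT, which promote division, survival and movement. In glioblastoma EGFR, PDGFRA and MET are recurrently amplified or mutated, FGFR3 is found in gene fusions, and AXL is associated with mesenchymal, invasive tumour cells.

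The targeted gene was measured first. PTBP1 was at 111, 112 and 124 FPKM (sequenced fragments divided by transcript length and by the mapped total of a library) in sh-Luci-3d, at 66.2, 64.4 and 61.0 in sh-Ptbp1-3d and at 49.7, 50.7 and 51.0 in sh-Ptbp1-7d. It fell between each pair of groups, to 55.2% of the sh-Luci-3d mean at 3 days (log2 fold change -0.85, standard error 0.0725, limma adjusted p = 0.00314). The FPKM of a library summed to between 367412 and 404922, and the read depth behind the values is unknown. One library stood apart: sh-Ptbp1-3d replicate 3 held 11.5 FPKM of STMN2, a gene of immature neurons, which was listed at 0 in the other 8. It also held 2.14 FPKM of DCX, which did not exceed 0.035 elsewhere. Both genes were singled out after their values were seen. Of the glial and glioma markers, VIM (mean 4168 FPKM in sh-Luci-3d), CD44 (182), SOX2 (105.7), NES (40.5) and SOX9 (38.3) were abundant. Of those that mark mature astrocytes, AQP4 did not exceed 0.0566 FPKM in any library and GFAP lay between 0.109 and 1.15, while between the knockdown groups SLC1A3 rose from 2.02 to 7.66 FPKM and S100B from 0.115 to 0.797 (limma adjusted p = 9.32e-06 and 0.00202). Across all 9 libraries the 8 blood and immune markers summed to between 0.454 and 1.21 FPKM, with 4 of them at 0 throughout. The 7 oligodendrocyte markers summed to between 0.121 and 0.502, with OLIG1 and MOG at 0, and the 6 endothelial ones to between 0.738 and 2.19. The 9 glial and glioma markers, mostly VIM, summed to 4460–4586, 4571–4879 and 1393–1516 FPKM in the order of the groups above, and the 8 neuronal ones, mostly TUBB3 and NEFL, to 483–521, 554–568 and 251–258. Not every neuronal marker followed that sum: between the knockdown groups MAP2 rose from 20.3 to 38.9 FPKM (limma adjusted p = 5.80e-04). SNAP25 stood at 2.68 and 4.32 without passing (limma adjusted p = 0.0177), and its sh-Ptbp1-3d libraries held 2.05, 2.14 and, in replicate 3, 3.86. TUBB3 went from 316.9 to 118.2 FPKM and NEFL from 216.2 to 92.7. Of the 7 neuronal markers tested, 1 rose and 2 fell at a limma adjusted p below 0.01 (20.3% and 15.5% of all features). Without sh-Ptbp1-3d replicate 3, 2 rose and 2 fell, each also more than 2-fold (1194 and 915 of all 15551 features). The 6 mural and fibroblast markers, almost wholly COL1A2, summed to 214–247 FPKM in sh-Luci-3d, 225–234 in sh-Ptbp1-3d and 442–526 in sh-Ptbp1-7d, and the part of these shifts in the results was not tested. In bulk RNA, fewer expressing cells and less RNA per cell cannot be told apart.

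The receptors did not move together. From 3 to 7 days of knockdown, MET fell past both thresholds (a fold change above 2 and a false discovery rate, FDR, below 0.01). EGFR and FGFR3 fell and FGFR1 and PDGFRA rose past the FDR with folds below 2, and ERBB2, ERBB3, PDGFRB and AXL did not pass it. Thus 5 of 9 passed the FDR, where 35.8% of all 15551 features tested did, with 2 higher (20.3% of all) and 3 lower (15.5%). Of the 9, 1 passed both thresholds, where 14.2% of all features did. The 7-day and 3-day knockdown libraries did not overlap for 8 of the 9 receptors, 3 of them higher and 5 lower at 7 days, and for 62.3% of all features (35.3% higher and 27.0% lower). The median log2 fold change of the 9 was -0.60, the value of PDGFRB, which did not pass, against 0.09 over all features. Without sh-Ptbp1-3d replicate 3, 4 of the 9 passed the FDR (MET, EGFR, FGFR1 and ERBB3), and MET and ERBB3 passed both thresholds. Leaving that library out also lowered the counts over all 15551 features. Past the FDR 2343 then rose and 2019 fell, against 3152 and 2418 with it. Past both thresholds 1194 rose and 915 fell, against 1293 and 918.

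Against sh-Luci-3d, which shares the sh-Ptbp1-7d libraries with that comparison, 5 of 9 receptors passed the FDR at 7 days (35.6% of all features) and 1 passed both thresholds (14.6%). MET, EGFR and PDGFRB fell (15.0% of all features fell), and FGFR1 and ERBB2 rose (20.6% of all rose). The libraries did not overlap for 8 of the 9 (55.9% of all features), AXL being the exception. The median was -0.56, the value of FGFR3, which did not pass, against 0.10 over all features. At 3 days the picture differed. In the knockdown against the control, limma called 0 of the 9 receptors at an FDR below 0.05, 0 had an unadjusted p under 0.05, and the libraries overlapped for all 9. In this comparison 0.0322% of all features passed the FDR and 10.8% did not overlap, and 1126 of the 15551 had an unadjusted limma p under 0.05. Without sh-Ptbp1-3d replicate 3, 0 of all features passed the FDR, so that PTBP1 did not pass either. The limma adjusted p of the receptors lay between 0.751 and 0.951, and their median log2 fold change was 0.09 (all features 0.01). A difference below a threshold is not shown to be absent: the 95% interval of the 3-day log2 fold change ran from -0.41 to 0.27 for EGFR, from -0.38 to 0.16 for MET and from -0.09 to 0.31 for FGFR1. With 3 libraries against 3, the smallest two-sided p of an exact permutation test of 1 gene is 0.1, and therefore limma's standard errors and adjusted p-values are given throughout.

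**Figure D1:**
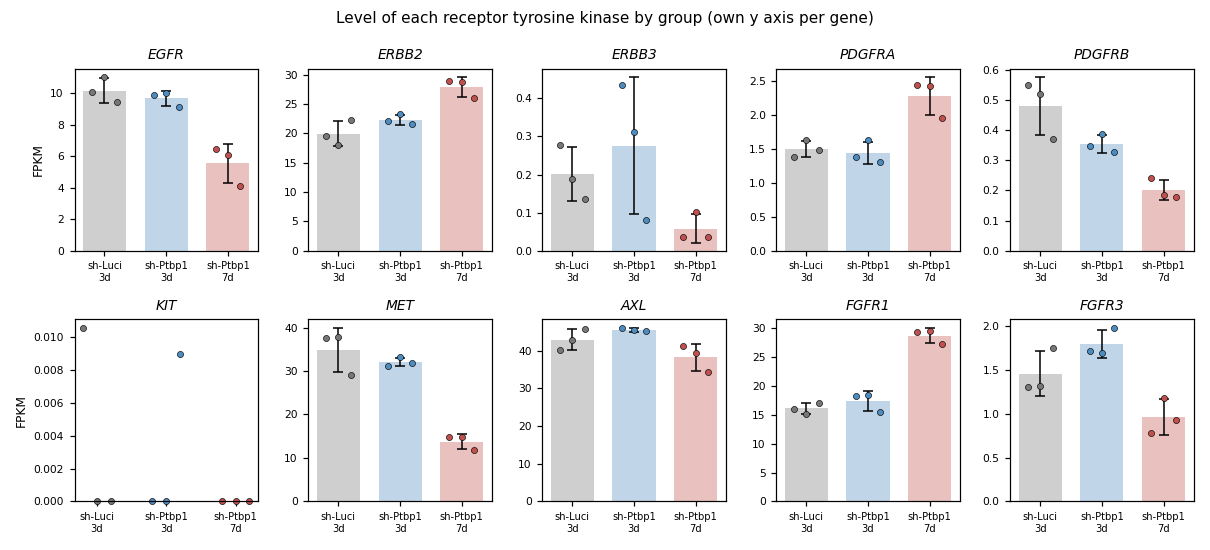
FPKM of each of the 10 receptors (y axis, its own scale per gene) in the control group and both knockdown groups (x axis). Points are libraries, bars are means and error bars are 1 SD (n = 3), with KIT shown as points only. At 7 days MET, EGFR, FGFR3 and PDGFRB sat below, and FGFR1, ERBB2 and PDGFRA above, every library of both 3-day groups.

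**Figure D2:**
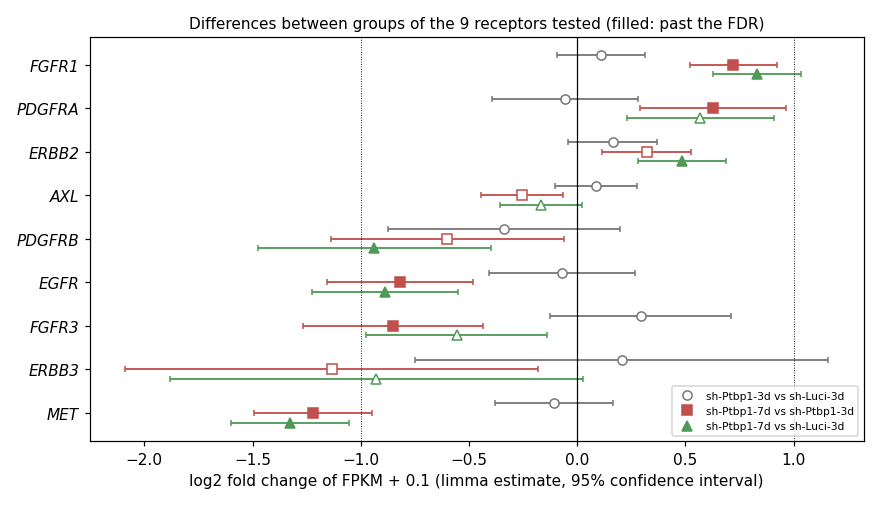
Log2 fold change of FPKM + 0.1 with its 95% confidence interval (x axis) for the 9 receptors tested (y axis) in the 3 comparisons. Filled symbols passed the FDR of their comparison, open ones did not, and dotted lines mark a fold of 2. MET alone lay beyond the dotted line with a filled symbol, at -1.22 and -1.33.

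EGFR, the receptor for epidermal growth factor and transforming growth factor alpha, lies on chromosome 7 from 55019021 to 55211628 (plus strand, GRCh38). Its level was 10.1, 11.03 and 9.43 FPKM in sh-Luci-3d, 9.92, 10.03 and 9.13 in sh-Ptbp1-3d and 6.45, 6.08 and 4.11 in sh-Ptbp1-7d. The 3-day groups overlapped, and every 7-day library lay below both. EGFR fell to 57.2% of the sh-Ptbp1-3d mean (log2 fold change -0.82, standard error 0.153, limma adjusted p = 0.00119) and to 54.5% of the sh-Luci-3d mean (limma adjusted p = 6.81e-04).

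ERBB2, the partner receptor of the family that binds no known ligand itself, lies on chromosome 17 from 39687914 to 39730426. It moved the other way. Its level was 19.6, 18.0 and 22.3 FPKM in sh-Luci-3d, 22.1, 23.2 and 21.6 in sh-Ptbp1-3d and 28.95, 28.8 and 26.0 in sh-Ptbp1-7d, with every 7-day library above the other 6. ERBB2 rose against sh-Luci-3d, with a ratio of means of 1.40 (log2 fold change 0.48, standard error 0.0924, limma adjusted p = 0.00134). Against sh-Ptbp1-3d the ratio was 1.25, with a log2 interval from 0.12 to 0.53 and a limma adjusted p of 0.0143 that did not pass. It passed without sh-Luci-3d replicate 3 (limma adjusted p = 0.00251), with TPM (0.00263), without assembled loci and mitochondrial genes (0.00321) and when only these 2 groups were fitted (0.00392). In the annotation ERBB2 shares 571 exonic bases with MIEN1 on the opposite strand and 194 with PGAP3, and whether the counting used strand is not stated in the sources used here. MIEN1 had mean levels of 35.3, 39.2 and 22.4 FPKM and PGAP3 of 4.12, 5.25 and 7.19 in the order of the groups above.

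ERBB3, a neuregulin receptor with little kinase activity of its own that signals through ERBB2, was near the detection limit. It lies on chromosome 12 from 56076799 to 56103505. The libraries held 0.277, 0.189 and 0.137 FPKM in sh-Luci-3d, 0.434, 0.312 and 0.0798 in sh-Ptbp1-3d and 0.0364, 0.102 and 0.0359 in sh-Ptbp1-7d. The lowest sh-Ptbp1-3d value came from replicate 3, the library that stood apart, and it lay within the 7-day range. The log2 fold change between the knockdown groups was -1.13 (standard error 0.431, limma adjusted p = 0.0485), and without that library it was -1.60 (limma adjusted p = 0.00471).

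MET, the receptor for hepatocyte growth factor, showed the largest change of the 9 past the FDR. It lies on chromosome 7 from 116672390 to 116798386 (plus strand). MET was at 37.6, 37.9 and 29.001 FPKM in sh-Luci-3d, at 31.2, 33.2 and 31.8 in sh-Ptbp1-3d and at 14.9, 14.7 and 11.7 in sh-Ptbp1-7d. The 7-day libraries formed a separate low group. MET fell to 43.0% of the sh-Ptbp1-3d mean (log2 fold change -1.22, standard error 0.123, limma adjusted p = 1.58e-05) and to 39.6% of the sh-Luci-3d mean (log2 fold change -1.33, limma adjusted p = 8.44e-06). Without sh-Ptbp1-3d replicate 3 the first of these was -1.23 (limma adjusted p = 0.00031).

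AXL, which binds GAS6 and with it the phosphatidylserine of dying cells, was the most abundant of the 10 and the least changed at 7 days. It lies on chromosome 19 from 41219203 to 41261766. Its level was 40.2, 42.9 and 45.8 FPKM in sh-Luci-3d, 46.1, 45.5 and 45.1 in sh-Ptbp1-3d and 41.2, 39.4 and 34.3 in sh-Ptbp1-7d. The 7-day libraries lay below those of sh-Ptbp1-3d but overlapped those of sh-Luci-3d. The log2 fold change was -0.25 against sh-Ptbp1-3d (95% interval -0.44 to -0.06, limma adjusted p = 0.0297) and -0.17 against sh-Luci-3d (-0.36 to 0.02, limma adjusted p = 0.129), and neither passed. Under median-ratio scaling the first was -0.34 and passed (limma adjusted p = 0.00612).

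FGFR1, a fibroblast growth factor receptor widely used by neural stem cells and astrocytes, rose. It was at 16.0, 15.1 and 17.0 FPKM in sh-Luci-3d, at 18.3, 18.4 and 15.4 in sh-Ptbp1-3d and at 29.3, 29.5 and 27.1 in sh-Ptbp1-7d. All 7-day libraries were above all 3-day ones. The mean at 7 days was 1.65 times that of sh-Ptbp1-3d (log2 fold change 0.72, standard error 0.0917, limma adjusted p = 8.48e-05) and 1.78 times that of sh-Luci-3d (log2 fold change 0.83, limma adjusted p = 3.00e-05). FGFR1 shares 138 exonic bases with LETM2, whose mean was 0.752, 1.16 and 1.26 FPKM in the order of the groups above.

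FGFR3, a second receptor of that family, was lower, with a mean FGFR1 to FGFR3 ratio of 11.2, 9.77 and 30.6 in the 3 groups, and changed in the opposite direction. It lies on chromosome 4 from 1793293 to 1808872 (plus strand). The libraries held 1.30, 1.32 and 1.75 FPKM in sh-Luci-3d, 1.72, 1.69 and 1.98 in sh-Ptbp1-3d and 0.776, 1.18 and 0.933 in sh-Ptbp1-7d. The 7-day libraries lay below all others. FGFR3 fell to 53.6% of the sh-Ptbp1-3d mean (log2 fold change -0.85, standard error 0.188, limma adjusted p = 0.00343), and against sh-Luci-3d it stood at 66.0% (log2 fold change -0.56, limma adjusted p = 0.0300, not passed). The first call was lost when any of sh-Ptbp1-3d replicates 1, 2 and 3 or sh-Ptbp1-7d replicates 1 and 3 was left out, with log2 fold changes of -0.88, -0.89, -0.78, -0.72 and -0.84 and a highest limma adjusted p of 0.0184.

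The start regions of the 3 receptors that fell between the knockdown groups are shown because all 3 went down. Each line gives the 120 bases just before the RefSeq transcript start on GRCh38.p14, read 5′ to 3′ on the plus strand, with GC boxes (GGGCGG on either strand, the core that SP1-family factors can bind) in capitals. The windows are chr7:55018897-55019016 for EGFR, chr7:116672076-116672195 for MET and chr4:1793173-1793292 for FGFR3, and 0 GENCODE v29 exons overlap them.
EGFR: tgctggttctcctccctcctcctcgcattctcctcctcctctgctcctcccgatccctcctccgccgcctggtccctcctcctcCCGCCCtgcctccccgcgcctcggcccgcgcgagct
MET: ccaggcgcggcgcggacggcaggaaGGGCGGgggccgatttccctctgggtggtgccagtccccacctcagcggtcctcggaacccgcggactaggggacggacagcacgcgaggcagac
FGFR3: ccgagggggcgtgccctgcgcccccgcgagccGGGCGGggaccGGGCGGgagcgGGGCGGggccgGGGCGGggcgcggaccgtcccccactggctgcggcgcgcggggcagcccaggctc
The 120 bases of FGFR3 hold 4 GC boxes and those of EGFR and MET 1 each, and none of the 3 windows has a CCAAT or TATAAA motif on either strand. Over the 250 bases before the start the G and C content was 73.6% for EGFR at this start, 68.4% for MET and 86.8% for FGFR3, the last at percentile 99.8 of 35114 RefSeq promoters whose median was 58.0%. In those 250 bases FGFR3 held 8 GC boxes and EGFR and MET 2 each. At least 1 GC box was present in 42.6% of all promoters and at least 3 in 13.9%, a CCAAT motif in 32.0% and TATAAA in 10.7%. A second RefSeq start of EGFR had 38.8%, 0 GC boxes and 2 TATAAA motifs, and the files do not tell the starts apart. The 2 starts of PDGFRA, which rose between the knockdown groups, had 46.8% with 0 GC boxes and 64.0% with 2. ERBB2, which rose past the FDR only against sh-Luci-3d, had 65.6% with 0. AXL and PDGFRB did not pass between the knockdown groups. The 2 starts of AXL had 64.4% with 2 and 54.4% with 0, and PDGFRB had 58.4% with 1. KIT, at or near 0 in every library, also had a GC-rich start (76.4%, 1 GC box). RefSeq promoters are given for 8 of the 10 receptors, and those of FGFR1 and ERBB3 are not reported here.

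PDGFRA, the platelet-derived growth factor receptor of oligodendrocyte precursors and of proneural glioblastoma, lies on chromosome 4 from 54229097 to 54298247. Its level was 1.39, 1.63 and 1.49 FPKM in sh-Luci-3d, 1.39, 1.63 and 1.31 in sh-Ptbp1-3d and 2.45, 2.44 and 1.96 in sh-Ptbp1-7d, where all libraries were above the other 6. PDGFRA rose 1.58-fold over sh-Ptbp1-3d (log2 fold change 0.63, standard error 0.153, limma adjusted p = 0.00596). The ratio to sh-Luci-3d was 1.52, with a limma adjusted p of 0.01004 that lay just outside the threshold. The first call was lost without any of sh-Ptbp1-3d replicates 1 and 3 and sh-Ptbp1-7d replicates 1 and 2 (log2 fold changes 0.60, 0.57, 0.57 and 0.58, highest limma adjusted p = 0.0280), and also under quantile normalization (0.44, 0.0204) and with no filter on low values (0.0119). The second was gained without sh-Ptbp1-7d replicate 3 (limma adjusted p = 0.00697) and under some other settings, TPM among them (0.00683).

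PDGFRB, the related receptor of pericytes and fibroblasts, was lower and went down. It lies on chromosome 5 from 150113837 to 150155872 (minus strand). The levels were 0.549, 0.520 and 0.369 FPKM in sh-Luci-3d, 0.347, 0.388 and 0.327 in sh-Ptbp1-3d and 0.240, 0.184 and 0.178 in sh-Ptbp1-7d. Each 7-day library was below both 3-day groups. PDGFRB fell to 41.8% of the sh-Luci-3d mean (log2 fold change -0.94, standard error 0.243, limma adjusted p = 0.00831), while the difference from sh-Ptbp1-3d did not pass (log2 fold change -0.60, limma adjusted p = 0.0614). The call against sh-Luci-3d was lost without any 1 of sh-Luci-3d replicates 1 and 2 (-0.85 and -0.88), sh-Ptbp1-3d replicates 1 and 2 (-0.94 each) or sh-Ptbp1-7d replicates 1, 2 and 3 (-1.03, -0.90 and -0.89), with a highest limma adjusted p of 0.0363. It was also lost with TPM (-1.04, 0.0117) and when only these 2 groups were fitted (0.0148). Of the mural and fibroblast markers tested, COL1A2 (219.6 to 476.8 FPKM) and ACTA2 (6.76 to 15.8) rose between the knockdown groups, and RGS5 (1.24 to 0.749) and COL1A1 (2.98 to 2.01) did not pass (limma adjusted p = 0.0285 and 0.0358). Their part in the PDGFRB values was not tested.

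KIT, the stem cell factor receptor, lies on chromosome 4 from 54657918 to 54740715. The table lists it at 0.0106 FPKM in sh-Luci-3d replicate 1, at 0.00895 in sh-Ptbp1-3d replicate 3 and at 0 in the other 7 libraries, and it was not tested. Its ligand KITLG was present and fell, from 1.59, 2.03 and 1.93 FPKM in sh-Ptbp1-3d to 0.989, 1.05 and 0.843 in sh-Ptbp1-7d (log2 fold change -0.88, standard error 0.168, limma adjusted p = 0.00138).

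FPKM is scaled for transcript length, so levels of different receptors can be set side by side only as far as the lengths used hold. The annotation lists 43 transcripts of FGFR1 and 5 of AXL, and the lengths used were not examined. The 10 summed to 127.6 ± 0.945 FPKM in sh-Luci-3d, 130.9 ± 3.85 in sh-Ptbp1-3d and 117.7 ± 9.87 in sh-Ptbp1-7d (SD, n = 3 each), and the ranges of the 3 groups were 127–129, 127–134 and 106–124. The order in both 3-day groups was AXL, MET, ERBB2, FGFR1 and EGFR, and no neighbours in it overlapped. PDGFRA and FGFR3 followed, overlapping in sh-Luci-3d, and PDGFRB, ERBB3 and KIT came last. At 7 days AXL was still first, FGFR1 and ERBB2 followed with overlapping libraries, and MET came next, ahead of EGFR. PDGFRA, FGFR3, PDGFRB, ERBB3 and KIT then descended without overlap.

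The shares of the summed FPKM of the 10 put numbers on this. MET held 27.3% in sh-Luci-3d, 24.5% in sh-Ptbp1-3d and 11.7% in sh-Ptbp1-7d, and EGFR 7.98%, 7.40% and 4.68%. FGFR1 held 12.6%, 13.3% and 24.4%, and ERBB2 15.6%, 17.0% and 23.7%. The share of AXL stayed between 32.5% and 34.8%. A ratio of 2 genes within a library is free of the scaling of that library. FGFR1 over MET was 0.426, 0.399 and 0.588 in sh-Luci-3d, 0.585, 0.553 and 0.486 in sh-Ptbp1-3d and 1.97, 2.0005 and 2.31 in sh-Ptbp1-7d, so that FGFR1 was the lower of the pair in all 6 libraries of 3 days and the higher in all 3 of 7 days. ERBB2 over EGFR averaged 1.98, 2.30 and 5.18 in the 3 groups, and PDGFRA over PDGFRB 3.23, 4.06 and 11.5. These pairs were chosen after their values were seen and are a description.

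**Figure D3:**
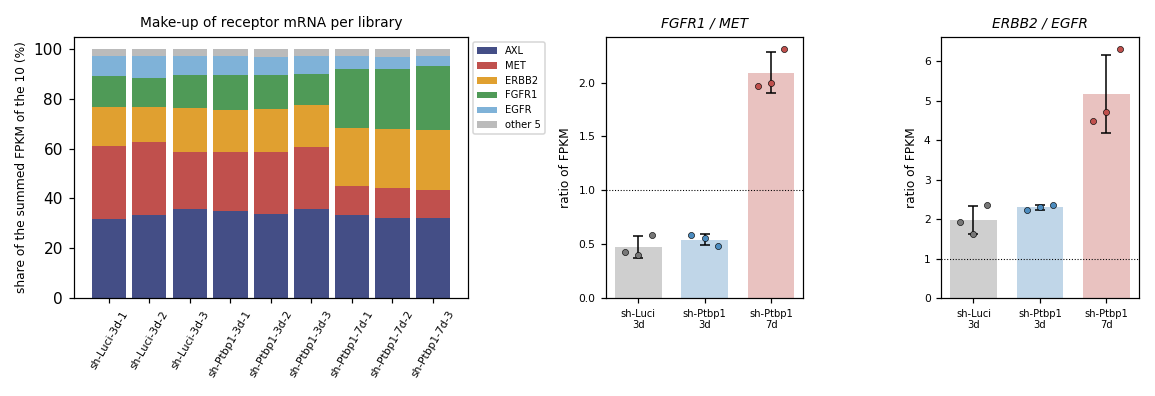
Left: share (%) of the summed FPKM of the 10 receptors held by AXL, MET, ERBB2, FGFR1, EGFR and the other 5 together in each of the 9 libraries. Right: the within-library ratios of FPKM FGFR1 to MET and ERBB2 to EGFR, with points for libraries, bars for means, error bars of 1 SD (n = 3) and a dotted line at 1. The FGFR1 to MET ratio was below 1 in every 3-day library and between 1.97 and 2.31 at 7 days.

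Other receptor tyrosine kinases were examined as a list of 48, of which 31 were tested. Between the knockdown groups 11 rose and 2 fell past the FDR (20.3% and 15.5% of all features). Of those that rose, 8 also passed the fold threshold (14.2% of all features passed both in either direction), and the median log2 fold change was 0.30 (all features 0.09). EPHA2, an ephrin receptor, was the most abundant of those that rose past both thresholds, from 45.1, 43.2 and 41.3 FPKM in sh-Ptbp1-3d to 115, 104 and 111 in sh-Ptbp1-7d (log2 fold change 1.35, standard error 0.0823, limma adjusted p = 4.08e-07). MERTK, a relative of AXL, rose from 0.157 ± 0.0278 to 0.984 ± 0.0965 FPKM (log2 fold change 2.08, SD, n = 3 each). MERTK averaged 0.310 in sh-Luci-3d, over which its log2 fold change at 7 days was 1.43. TYRO3, the third of the AXL family, fell from 3.22 ± 0.394 to 2.03 ± 0.344 between the knockdown groups (-0.65, SD, n = 3 each). The neurotrophin receptors NTRK2 and NTRK3 rose from means of 0.226 and 0.195 FPKM to 1.19 and 0.788 (log2 fold changes 1.996 and 1.61). ROR2, a Wnt receptor, rose with a log2 fold change of 1.22 from a mean of 0.0649 FPKM, and its limma adjusted p of 0.00989 stayed past the threshold in 7 of 20 alternatives. The ROR2 call was lost when any single library other than sh-Luci-3d replicate 3 was left out, with log2 fold changes from 1.08 to 1.35. The insulin-like growth factor receptor IGF1R fell from 14.7 ± 0.711 to 7.62 ± 1.42 FPKM (log2 fold change -0.95), and LMTK3 rose from 3.50 to 7.96 (1.17). ERBB4, the remaining member of the EGFR family, averaged 0.152, 0.159 and 0.200 FPKM in the 3 groups with overlapping libraries. Without sh-Ptbp1-3d replicate 3, 8 rose and 2 fell past the FDR, where 2343 and 2019 of all 15551 features did. At 3 days 0 of the 31 passed in limma and 1 had an unadjusted p under 0.05, as did 1126 of all 15551 features.

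Of 37 ligands of the 10 receptors 19 were tested, and between the knockdown groups 6 rose and 2 fell past the FDR (20.3% and 15.5% of all features), with a median log2 fold change of -0.05. TGFA, a ligand of EGFR, changed most. It was at 4.47, 4.59 and 3.77 FPKM in sh-Luci-3d, at 4.03, 3.94 and 2.82 in sh-Ptbp1-3d and at 40.4, 37.4 and 32.0 in sh-Ptbp1-7d, with no overlap between 7 days and 3 days. The rise over sh-Ptbp1-3d was 10.2-fold (log2 fold change 3.32, standard error 0.150, limma adjusted p = 5.06e-08). EGFR was lowest in the same group, and a link between TGFA and EGFR was not tested. BTC, another EGFR ligand, rose with a log2 fold change of 0.81, whereas EGF (2.59 and 2.81 FPKM, limma adjusted p = 0.509) and HBEGF (2.95 and 2.59 FPKM, limma adjusted p = 0.219) did not pass. AREG was listed at 0 in all 9 libraries.

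NRG2, a neuregulin read by ERBB3 and ERBB4, rose from 2.05 ± 0.281 to 6.59 ± 0.148 FPKM (log2 fold change 1.64). PDGFD, which acts on PDGFRB, rose from 1.33 ± 0.105 to 3.94 ± 0.417 (1.496, SD, n = 3 each), and PDGFC, which acts on PDGFRA, rose with a log2 fold change of 0.42. The fibroblast growth factors diverged, FGF2 rising with a log2 fold change of 0.57 and FGF5 falling from 2.71 ± 0.323 to 0.771 ± 0.0958 FPKM (-1.69). HGF, the ligand of MET, did not exceed 0.0913 FPKM in any library and was not tested. GAS6, the ligand of AXL, was abundant and did not pass (24.9 and 24.0 FPKM, limma adjusted p = 0.746). Without sh-Ptbp1-3d replicate 3, 4 ligands rose and 4 fell past the FDR, where 2343 and 2019 of all 15551 features did. At 3 days limma called 0 of the 19, with 0 at an unadjusted p under 0.05, where 1126 of all 15551 features were.

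A list of 24 genes for the restraint, trafficking and shedding of receptors had 23 tested. Of these, 7 rose and 4 fell past the FDR (20.3% and 15.5% of all features). Past both thresholds 3 of the 23 rose, as did 1293 of all 15551 features, and the median log2 fold change was 0.26. LRIG1, a membrane protein that binds EGFR, ERBB2 and MET and promotes their degradation, was at 6.78, 5.89 and 6.72 FPKM in sh-Luci-3d, at 7.37, 7.27 and 6.83 in sh-Ptbp1-3d and at 80.0, 76.6 and 69.5 in sh-Ptbp1-7d. The 7-day libraries were far above all others. The rise was 10.54-fold over sh-Ptbp1-3d (log2 fold change 3.38, standard error 0.0902, limma adjusted p = 1.87e-09). Its relative LRIG2 rose from 2.03 ± 0.124 to 4.63 ± 0.367 FPKM (SD, n = 3 each, log2 fold change 1.15). The ubiquitin ligase CBL fell (-0.67) and CBLB rose (0.79), the sheddase ADAM17 rose (0.64) and the RAS regulator NF1 rose (0.87), while the EGFR inhibitor ERRFI1 did not pass (0.35, limma adjusted p = 0.0101). Without sh-Ptbp1-3d replicate 3, 4 rose and 4 fell past the FDR, where 2343 and 2019 of all 15551 features did. Past both thresholds 3 still rose, as did 1194 of all features.

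Of 7 co-receptors, 5 were tested, and 4 fell past the FDR, as 15.5% of all features did, with a median log2 fold change of -0.44. GPC1, a heparan sulphate proteoglycan that presents fibroblast growth factors, fell from 58.0 ± 2.55 to 19.0 ± 0.617 FPKM (log2 fold change -1.61), and CD44, a hyaluronan receptor whose variants assist MET, from 165.6 ± 10.9 to 62.3 ± 2.12 (-1.41, SD, n = 3 each). SDC4 (-0.44) and NRP1 (-0.38) also fell, and FGFRL1 did not pass (55.1 and 48.1 FPKM, limma adjusted p = 0.0609). KL and KLB were too low to be tested. Without sh-Ptbp1-3d replicate 3 the count that fell past the FDR was 2, and 2019 of all 15551 features fell.

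All 34 adaptors and cascade kinases were tested, and 7 rose and 6 fell past the FDR (20.3% and 15.5% of all features), a count near that of all features, with a median log2 fold change of -0.08. PIK3CA, a catalytic subunit of PI3 kinase, fell from 10.9 ± 0.146 to 5.08 ± 0.519 FPKM (log2 fold change -1.10), and PTPN11, which encodes the phosphatase SHP2, from 28.3 ± 0.760 to 13.5 ± 2.10 (-1.08). The docking protein GAB1, a main adaptor of MET, rose from 1.70 ± 0.151 to 3.67 ± 0.578 FPKM (1.06, SD, n = 3 each, limma adjusted p = 0.00413), and FRS2, the docking protein of the FGF receptors, rose with a log2 fold change of 0.96. The GAB1 call was lost without sh-Ptbp1-3d replicates 1 or 3 or sh-Ptbp1-7d replicates 1 or 2 (1.005, 1.05, 0.97 and 1.02). Without sh-Ptbp1-3d replicate 3, 6 rose and 4 fell past the FDR, where 2343 and 2019 of all 15551 features did. At 3 days limma called 0 restraint genes, co-receptors or adaptors, and 0, 2 and 1 of them had an unadjusted p under 0.05. Of all 15551 features, 1126 did. Against sh-Luci-3d, 20.6% of all features rose and 15.0% fell past the FDR at 7 days, in libraries shared with the comparison above. The rises and falls were 11 and 1 of the 31 other receptors tested, 6 and 2 of 19 ligands and 6 and 3 of 23 restraint genes. They were 0 and 4 of 5 co-receptors and 7 and 7 of 34 adaptors and kinases.

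**Figure D4:**
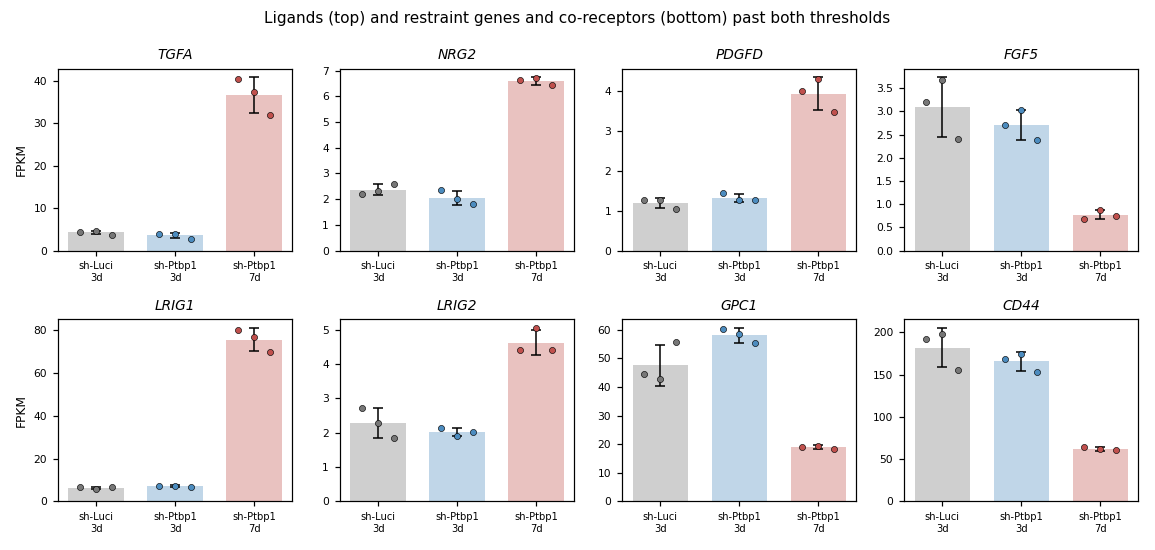
FPKM (y axis, own scale per gene) of the ligands TGFA, NRG2, PDGFD and FGF5 (top) and of LRIG1, LRIG2, GPC1 and CD44 (bottom) in the 3 groups (x axis). Points are libraries, bars are means and error bars are 1 SD (n = 3). TGFA and LRIG1 stood near their sh-Luci-3d level in sh-Ptbp1-3d and 10.2-fold and 10.54-fold above that of sh-Ptbp1-3d in sh-Ptbp1-7d.

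The genes whose levels followed each receptor most closely over the 9 libraries were taken from 11339 genes averaging 1 FPKM or more, by Pearson's r of log2 values. These correlations share the libraries and the difference between days, and are given as a description. MET was followed by SEPTIN11 (0.998), MAP1B (0.998) and LRRFIP1 (0.997), EGFR by FAM120A (0.992), SPTBN1 (0.992) and MICAL3 (0.990), and FGFR3 by TCHP (0.973), HMGN3 (0.963) and NDUFB9 (0.959). FGFR1 was followed by DLG4, ZNF526 and DUSP7 (0.997 each), ERBB2 by CD82 (0.994), GANAB (0.984) and FAM131A (0.983), and PDGFRA by CREBRF (0.981) and ZNF101 (0.978). AXL was followed by HNRNPUL1 (0.982), MTHFD1L (0.981) and WDR4 (0.977). HNRNPUL1 is the next gene downstream of AXL on chromosome 19, from 41262496 to 41307598 on the same strand, and starts 729 bases beyond the end of AXL with 0 annotated genes between them.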

How the data were processed

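RNA-seq of 9 U251 libraries was analysed. The authors sequenced on Illumina HiSeq, filtered and aligned the reads, and deposited FPKM values per gene and library. The submitters' processing notes name HISAT2 and GRCh38. The deposited coordinates of loci assembled by StringTie, a table of other values, were used only to look for loci over the receptors (0 found). FPKM carries no read counts, so depth and counting error are unknown.

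From the FPKM, log2(FPKM + 0.1) of the 15551 features with a mean of at least 0.1 FPKM was fitted with limma 3.58.1 in R 4.3.3, one model for the 3 groups and their 9 libraries, with an intensity trend and Benjamini-Hochberg adjustment over all features. A fold on this scale understates the change of low genes. Thresholds were a fold above 2 with an FDR below 0.05 (sh-Ptbp1-3d against sh-Luci-3d) or below 0.01 (both 7-day comparisons). The fit was tested on simulated data. Figures used matplotlib 3.10.9 in Python 3.11.15, positions come from GENCODE v29, and 97.6% of the symbols in the table are in it.

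The receptors and the gene lists were chosen with earlier results of these data known. Named genes were all 10 receptors, up to 5 per list, comparison and direction past both thresholds without overlap between libraries, the 3 genes best correlated with each receptor of at least 1 FPKM, and PTBP1. Of these, 2 genes are not reported here. Other genes were named after their values were seen. Same-numbered libraries of different groups did not deviate together (correlations -0.032 to 0.051), so they were not paired. Alternatives were other pseudocounts, filters, scalings, thresholds and fits, a replicate block and each library left out. Counts past the FDR alone under these settings, and list counts without sh-Ptbp1-3d replicate 3, were added after seeing the data.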

Additional observations from a re-analysis of the deposited data

How the results depend on the processing

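MET, EGFR and FGFR1 kept their direction and their side of the FDR in both 7-day comparisons under all 21 alternatives, with adjusted p (limma) against sh-Ptbp1-3d of 3.09e-06 to 0.00031, 2.39e-04 to 0.00616 and 2.05e-05 to 8.20e-04. Over all alternatives, comparisons and receptors, 519 values were unchanged in call, 19 gained a call, 21 lost it and 2 changed sign: at 3 days ERBB3 was -0.12 without sh-Ptbp1-3d replicate 1, and PDGFRA 0.0042 without sh-Ptbp1-3d replicate 3. With single libraries left out, these 3-day values ranged from -0.12 to 0.67 for ERBB3 and from -0.14 to 0.0042 for PDGFRA. Of the other named genes, 702 values were unchanged in call and 25 were lost, all of ROR2 and GAB1.

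Receptors past both thresholds were 0 at 3 days in all 22 alternatives. Against sh-Ptbp1-3d the count of 1 became 2 under quantile normalization (FGFR3 added) and an FDR of 0.05 (ERBB3), 5 without the fold threshold, and 1 to 2 with single libraries left out (2 without sh-Ptbp1-3d replicate 3). Against sh-Luci-3d it became 2 with a pseudocount of 0.01 and with median-ratio scaling (PDGFRB), 3 under quantile normalization (PDGFRB and EGFR), 5 without the fold threshold, and 1 to 2 with single libraries left out (2 without sh-Luci-3d replicate 3 or sh-Ptbp1-7d replicate 1). Past the FDR alone, 3 to 6 receptors passed against sh-Ptbp1-3d and 4 to 5 against sh-Luci-3d with single libraries left out. The 3 came without sh-Ptbp1-3d replicate 1 or sh-Ptbp1-7d replicate 1.

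Over all features, the 2 called at 3 days became 1 with a pseudocount of 0.01, a filter at 1 FPKM, median-ratio scaling, TPM, quantile normalization, no trend or an FDR of 0.01, 0 when only the compared groups were fitted, 5 without the fold threshold, and 0 to 57 with single libraries left out (57 without sh-Luci-3d replicate 3). The 2211 against sh-Ptbp1-3d became 1255 with a pseudocount of 1 and 5570 without the fold threshold, and 2019 to 2229 with libraries left out. The 2271 against sh-Luci-3d became 1269, 5540 and 2081 to 2272. With the replicate number as a block, the 3-day count of all features was 0, and among receptors only the calls against sh-Luci-3d of PDGFRB (lost, limma adjusted p = 0.0120) and PDGFRA (gained, 0.0091) changed. The same-numbered libraries share a number only. The cause of these changes was not tested.

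The median log2 fold change of all features against sh-Ptbp1-3d was 0.09 as reported, 0.19 with TPM, 0.01 with median-ratio scaling and -0.01 with quantile normalization. MET, EGFR and FGFR3 stayed lower and FGFR1, PDGFRA and ERBB2 higher under each, though PDGFRA lost its call with quantile normalization (limma adjusted p = 0.0204) and ERBB2 gained one with TPM (0.00263). Depth is unknown, which limits ERBB3, PDGFRB and KIT most.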

Other observations

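The level of MERTK relative to AXL within a library, a pair chosen after its values were seen, was 0.00993, 0.00455 and 0.00732 in sh-Luci-3d, 0.00316, 0.00414 and 0.00303 in sh-Ptbp1-3d and 0.0219, 0.0242 and 0.0318 in sh-Ptbp1-7d. AXL therefore remained the more abundant of these GAS6 receptors by a wide margin in every library. The level of LRIG1 relative to EGFR, also chosen afterwards, averaged 0.639, 0.739 and 14.0 in the 3 groups.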
